A study of Mus musculus with 25 samples.

Results

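Type I interferon-stimulated genes were followed through the macrophages and neutrophils of injured mouse muscle and through cultured macrophages given resolvin D2 (RvD2). The members were 35 genes listed by symbol, and a gene counted as a member where its symbol was on that list. All 35 were found, once each, among the 38087 genes of each of 2 tables, one for muscle and one for bone marrow-derived macrophages (BMDM). By role, 6 encode nucleic acid sensors and DNA-binding proteins (Ifih1, Ddx58, Dhx58, Zbp1, Ifi204, Ifi203). Proteins acting on RNA, nucleotides or translation come from 13 members (Ifit1, Ifit2, Ifit3, Oas2, Oas3, Oasl1, Oasl2, Eif2ak2, Isg20, Adar, Rsad2, Cmpk2, Samd9l). A further 5 were grouped under membranes and transport (Ifitm3, Bst2, Mx1, Mx2, Rtp4). Another 7 belong to ISG15, ubiquitin and ADP-ribose chemistry (Isg15, Usp18, Herc6, Dtx3l, Parp9, Parp14, Trim30a). The last 4 have other or less settled roles (Sp100, Xaf1, Ifi44, Ifi35).

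Type I interferons, the alpha and beta interferons, bind a receptor made of Ifnar1 and Ifnar2. Through the kinases Jak1 and Tyk2 the receptor activates a complex with Stat2 and Irf9, which binds interferon-stimulated response elements (ISRE) at target genes. Irf7, itself a target, amplifies the response, and Usp18 and the SOCS proteins restrain it. In macrophages the targets are known for antiviral defence, and many of them also respond to interferon gamma.

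The muscle samples came from male C57BL/6J mice, adults of 2 to 4 months, whose tibialis anterior was injured by injecting cardiotoxin, which destroys myofibres and is followed by regeneration. From the CD45+ leukocytes, 2 macrophage subsets were sorted, Ly6Chigh F4/80low and Ly6Clow F4/80high, each with 3 samples at day 2 and 2 at day 4 after injury. Ly6Ghigh neutrophils were sorted at day 1 (3 samples). BMDM were grown with M-CSF from marrow of male mice, 8 to 10 weeks old by the protocol, and replated without it. They were compared as 3 untreated libraries and 3 libraries given 10 nM RvD2 for 4 h. RvD2 is a pro-resolving lipid derived from docosahexaenoic acid. None of the groups carried an engineered allele in the labels, and an uninjured muscle control was not analysed here. Each muscle group is a single column, read here as the authors' mean, so muscle values have no error and no test. There, "higher" and "lower" compare these group values only.

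The sorted groups matched their labels at the defining markers. Csf1r, the M-CSF receptor of macrophages, was between 13.86 and 15.16 (log2 normalised count) in the 4 macrophage groups. Ly6g, which marks neutrophils, was listed at 0 in those 4 groups and at 7.20 in neutrophils, whose Csf1r was still 13.42. BMDM had Csf1r between 14.08 and 14.40, but also fibroblast collagen Col1a1 at 13.95 to 14.53 and the granulocyte gene Ngp at 10.29 to 12.08. Normalised counts summed to 11.9 to 12.8 M (mega) in macrophage groups and to 26.0 M in neutrophils, so neutrophils were compared on the deposited scale and again on a scale of equal totals. In sorted bulk samples, fewer cells of a type and less RNA per cell cannot be told apart.

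Members lay on 13 chromosomes, and 16 of them fell into 7 clusters in which neighbours were at most 200 kb apart (GENCODE M21, GRCm38/mm10). Ifit2, Ifit3 and Ifit1 lie within 99.3 kb of chromosome 19, and Rsad2 and Cmpk2 within 37.1 kb of chromosome 12. Dtx3l and Parp9 share 458 bp of exon on opposite strands of chromosome 16, and since the libraries as described mark no strand, their reads cannot be told apart there. Values of close paralogs such as Oasl1 and Oasl2 or Mx1 and Mx2 are uncertain for a similar reason. RefSeq promoter windows of 300 bases (GRCm38.p6, from 250 bases before to 50 after an annotated start) were at hand for 25 of 35 members. They were searched on both strands for the core of an ISRE, which reads GAAA, any 2 bases, then GAAA. At least 1 match was present in 12 of 25 members (48%) against 3.99% of 27025 genes, and 5 members had 2 or more matches (Isg15, Ifit1, Ifit3, Ifitm3 and Bst2) against 0.266% of genes. The core of a gamma-activated site, TTC, any 3 bases, then GAA, was in 7 of 25 members (28%) against 9.55% of genes. A match is a string of letters and not a measured binding site, and a window without one says only that these letters are not in it.

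The windows below belong to members on which the results turn. Isg15 had the most matches, 3 overlapping ones that begin 78, 72 and 66 bases before the start. Bst2, the member whose levels went against the others in the subset comparison, had 2. Ifi44, which had the largest differences between days, had no match. Each is printed 5′ to 3′ on the strand of the gene, with bases covered by an ISRE core in capitals.
Isg15, chr4:156200769-156201068 (minus strand): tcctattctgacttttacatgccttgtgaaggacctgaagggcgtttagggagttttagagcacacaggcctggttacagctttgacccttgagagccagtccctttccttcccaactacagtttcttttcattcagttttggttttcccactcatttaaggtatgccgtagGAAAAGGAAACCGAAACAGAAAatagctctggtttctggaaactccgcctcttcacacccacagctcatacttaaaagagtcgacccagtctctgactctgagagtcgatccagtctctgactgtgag
Bst2, chr8:71537423-71537722 (minus strand): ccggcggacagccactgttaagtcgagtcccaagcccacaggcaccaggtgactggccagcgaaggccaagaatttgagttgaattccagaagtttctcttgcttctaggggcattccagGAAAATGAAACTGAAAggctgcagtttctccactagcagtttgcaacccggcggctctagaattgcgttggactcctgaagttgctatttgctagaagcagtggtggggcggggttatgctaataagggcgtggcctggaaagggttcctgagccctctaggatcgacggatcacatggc
Ifi44, chr3:151749861-151750160 (minus strand): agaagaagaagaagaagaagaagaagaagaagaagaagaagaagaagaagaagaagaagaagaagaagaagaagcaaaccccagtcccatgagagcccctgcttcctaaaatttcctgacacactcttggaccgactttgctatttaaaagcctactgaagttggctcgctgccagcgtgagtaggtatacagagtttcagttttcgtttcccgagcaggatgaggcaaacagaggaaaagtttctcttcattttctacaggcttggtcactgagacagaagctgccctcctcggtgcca
The 12 members with a match had a median log2 day 4 over day 2 ratio in Ly6Clow cells of 1.58, and the 13 without had 1.54. For the subset ratio at day 2 the medians were -1.19 and -1.09. For these ratios the medians of members with and without the motif lay close together. For neutrophils at day 1 over Ly6Chigh cells at day 2, as deposited, they were 1.31 and 0.75. The ranges there were wide, -3.55 to 2.58 and -1.27 to 3.11.

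The members shared a level order across the macrophage groups. Of the 35, 26 (74.3%) were highest in Ly6Chigh cells at day 4, followed by Ly6Clow cells at day 4, Ly6Chigh cells at day 2 and Ly6Clow cells at day 2, an order found in 8.87% of 12047 genes with a normalised count of at least 50 in any macrophage group. The lowest level was in Ly6Clow cells at day 2 for 34 members (97.1%) against 26.9% of genes. The highest was in Ly6Chigh cells at day 4 for 31 members (88.6%) against 21.4% of genes. The exceptions at the top were Ifitm3 and Ifi35, which were highest in Ly6Chigh cells at day 2, and Bst2 and Cmpk2, which were highest in Ly6Clow cells at day 4. Without replicate values, neighbours in an order cannot be set against their spread, and several lay close together, such as Ifi44 at 8.47 and 8.42 (log2 normalised count) in Ly6Chigh and Ly6Clow cells at day 4.

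**Figure D1:**
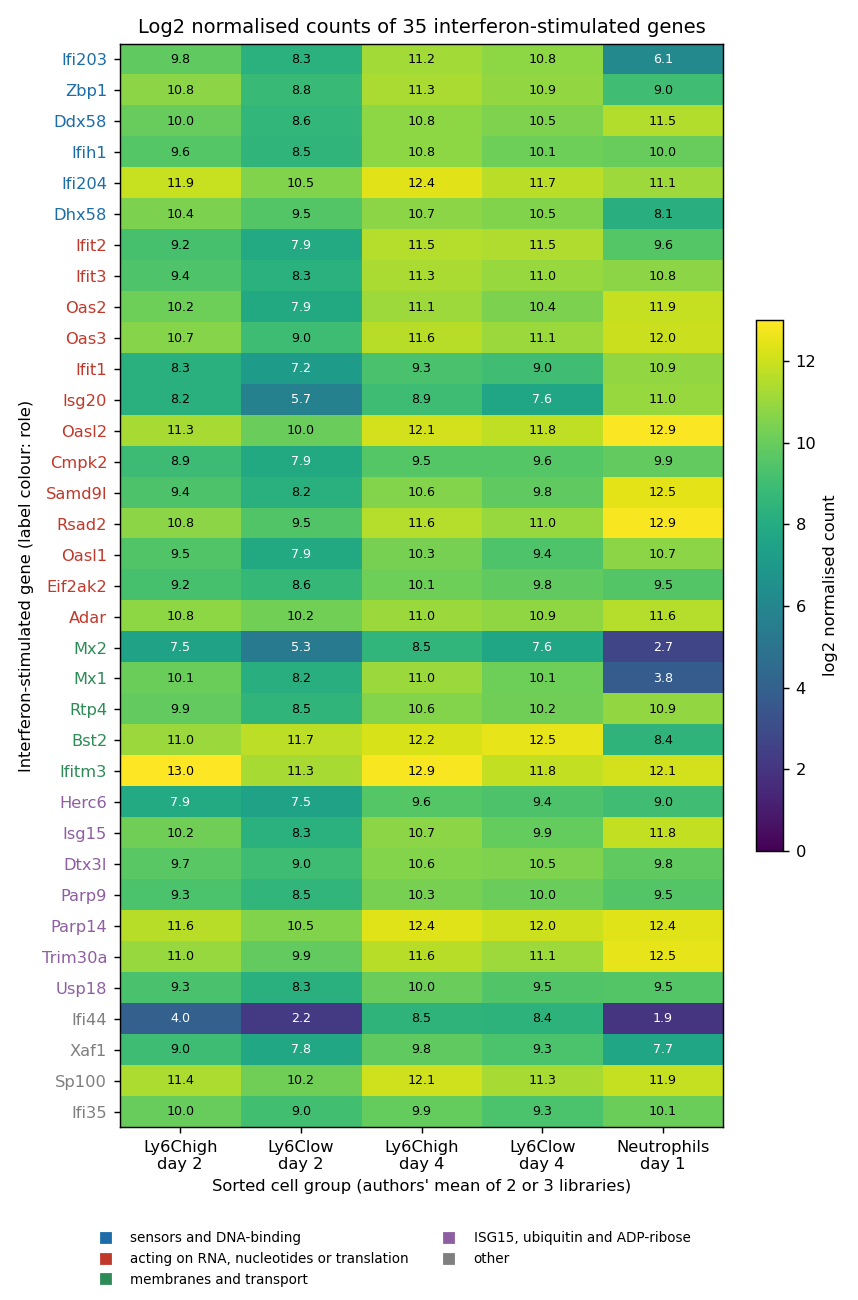
Levels of the 35 members in the 5 muscle groups, as log2 normalised counts (read as authors' group means, no error available), ordered by role. Ly6Clow cells at day 2 hold the lowest macrophage value for 34 members, and in neutrophils Mx1 (3.81) and Mx2 (2.74) stand far below their macrophage values while Samd9l (12.48) and Isg20 (11.01) stand above theirs.

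Per kilobase of exon, the members spanned a wide range of abundance. In Ly6Chigh cells at day 4, Ifitm3, which blocks viral entry at endosomal membranes, reached 10966 normalised counts per kb, Bst2 (tetherin, which holds virus particles at the cell surface) 5232 and the ubiquitin-like modifier Isg15 2225. The lowest there was Ifi44 at 57.9 normalised counts per kb. The median member stood at percentile 91.8 of expressed genes by this measure in Ly6Chigh cells at day 4, at 65.2 in Ly6Clow cells at day 2 and at 86.1 in Ly6Clow cells at day 4. In the BMDM table, which was normalised separately, the median member stood at percentile 40.6 to 57.9 across the 6 libraries.

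The first comparison asked how the subsets differed at day 2. Interferon-stimulated genes were lower in Ly6Clow than in Ly6Chigh cells for 34 of 35 members, with a median log2 ratio of -1.12 against a median of -0.00 over all genes. A difference was called where it was at least 2-fold on normalised counts with 10 added and the higher group was at 50 or more. By that rule 24 of 35 members were lower (background 5.46% of 11275 genes) and 0 were higher (background 5.9%), with 11.4% of genes called in either direction. Ifi44 did not reach the level of 50 in either subset and could not be called. The ratios ran from -2.33 for Isg20 to 0.66 for Bst2.

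Among genes acting on RNA, 10 of 13 were lower in Ly6Clow cells at day 2 (background 5.46%). Isg20, an exonuclease that degrades single-stranded RNA, was 8.24 (log2 normalised count) in Ly6Chigh and 5.70 in Ly6Clow cells, 5.04-fold lower. Oas2, a synthetase of 2′-5′ oligoadenylates that switch on RNase L, was 10.15 and 7.90, 4.62-fold lower. The radical-SAM enzyme Rsad2 (viperin) was 10.76 and 9.47, and Ifit1, which binds foreign 5′ ends of RNA, was 8.26 and 7.17. These are 2.43-fold and 2.06-fold differences, nearer the median of the members. Below 2-fold were the RNA-editing enzyme Adar (1.48-fold), the kinase Eif2ak2 (PKR, 1.46-fold) and Cmpk2 (1.93-fold).

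Of the sensors, 5 of 6 were lower in Ly6Clow cells at day 2 (background 5.46%). Zbp1, a sensor of Z-form nucleic acids, was 10.76 (log2 normalised count) in Ly6Chigh and 8.77 in Ly6Clow cells, 3.89-fold lower. The RNA helicase sensors Ddx58 (RIG-I) and Ifih1 (MDA5) were 2.56-fold and 2.09-fold lower. Dhx58, a regulator of both, was 1.87-fold lower and was not called.

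Under membranes and transport, 4 of 5 members were lower (background 5.46%). The dynamin-like GTPase genes Mx1 (10.09 and 8.20, 3.62-fold) and Mx2 (7.49 and 5.34, 3.76-fold) had similar ratios, and Ifitm3 was 12.96 and 11.28, 3.19-fold lower. Bst2 was the single member higher in Ly6Clow cells, at 11.70 against 11.04 in Ly6Chigh cells, a 1.58-fold difference that was not called. Its level thus stood apart from those of the other 4 members of that role.

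The ISG15 and ubiquitin group had fewer calls, 3 of 7 (background 5.46%). Isg15 was 10.20 in Ly6Chigh and 8.29 in Ly6Clow cells (log2 normalised count), 3.67-fold lower. Its protease Usp18 was 9.27 and 8.25, 1.99-fold lower and just under the limit. Trim30a and Parp14 made up the other calls at 2.14-fold and 2.10-fold, while the E3 ligase genes Herc6 and Dtx3l, and Parp9, which lies beside Dtx3l, differed 1.37-fold to 1.70-fold. Among the other members Sp100 (2.32-fold) and Xaf1 (2.17-fold) were called.

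The next comparison asked how day 4 differed from day 2 in each subset. In Ly6Clow cells all 35 members had a higher mean at day 4 (median log2 ratio 1.58), and 31 of 35 were called higher (background 8.08% of 11560 genes) and 0 lower (background 3.24%), with 11.3% of genes called either way. In Ly6Chigh cells 33 of 35 had a higher mean at day 4 with a median of 0.84, and 9 of 35 were called higher (background 9.67% of 11618 genes) and 0 lower (background 3.74%), with 13.4% called either way. On a scale of equal totals 15 members were called higher in Ly6Chigh cells, against 11.7% of genes on that scale. The day ratio was larger in Ly6Clow than in Ly6Chigh cells for 34 members against 49.6% of genes, by a median of 0.72 on the log2 scale, with Bst2 the exception. No test of this difference was possible with 1 column a group. The Ly6Chigh samples at day 4 and the Ly6Clow samples at day 4 number 2 each.

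The largest differences between days were in Ifi44, Ifit2 and Ifit3. Ifi44, whose role is not settled, was 3.97 at day 2 and 8.47 at day 4 in Ly6Chigh cells (log2 normalised count), and 2.23 and 8.42 in Ly6Clow cells. These are ratios of 14.2-fold and 24.0-fold on the scale with 10 added, which compresses a gene this low at day 2. Ifit2, a relative of Ifit1 that restrains translation, was 9.22 and 11.55 in Ly6Chigh cells, 4.96-fold, and 7.92 and 11.46 in Ly6Clow cells, 11.2-fold. Ifit3 was 9.42 and 11.33 in Ly6Chigh cells, 3.73-fold, and 8.31 and 11.00 in Ly6Clow cells, 6.28-fold. These 3 had the largest day ratios of the 35 members in both subsets.

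Genes acting on RNA were called in Ly6Clow cells for 12 of 13 members (background 8.08%), and in Ly6Chigh cells for 3 of 13 (background 9.67%). Oas2 was 10.15 and 11.09 at days 2 and 4 in Ly6Chigh cells (1.90-fold) and 7.90 and 10.43 in Ly6Clow cells (5.61-fold). Rsad2 was 11.55 at day 4 in Ly6Chigh cells (1.73-fold) and 11.01 in Ly6Clow cells (2.88-fold), and Ifit1 was 9.28 (1.99-fold) and 9.04 (3.48-fold). Samd9l, a regulator of translation, was 9.35 and 10.58 in Ly6Chigh cells (2.32-fold) and 8.23 and 9.80 in Ly6Clow cells (2.90-fold), called in both. Only Adar of this role was not called in Ly6Clow cells, at 1.54-fold.

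All 6 sensors were called higher at day 4 in Ly6Clow cells (background 8.08%), and 2 of 6 in Ly6Chigh cells (background 9.67%), Ifi203 and Ifih1. Ifi203 was 9.83 and 11.19 (log2 normalised count) at days 2 and 4 in Ly6Chigh cells, 2.56-fold, and 8.31 and 10.77 in Ly6Clow cells, 5.37-fold. Zbp1 reached 11.34 at day 4 in Ly6Chigh cells, 1.50-fold, and 10.89 in Ly6Clow cells, 4.27-fold. The change of a gene's subset gap and the difference of its day ratios are the same quantity. For Zbp1 that difference was 1.51 on the log2 scale, and for Oas2 it was 1.56, the largest of the members. Ifitm3 and Oasl1 also had wide gaps at day 2 (log2 ratios -1.67 and -1.53), but their day ratios differed by 0.64 and 0.63, under the median of 0.72.

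All 7 members of the ISG15 and ubiquitin group were called higher at day 4 in Ly6Clow cells (background 8.08%). In Ly6Chigh cells 1 of 7, Herc6, was called, near the background of 9.67%. Herc6 was 7.95 and 9.60 at days 2 and 4 in Ly6Chigh cells (3.05-fold) and 7.47 and 9.36 in Ly6Clow cells (3.57-fold). Isg15 reached 10.72 (log2 normalised count) in Ly6Chigh cells, 1.42-fold, and 9.90 in Ly6Clow cells, 2.98-fold. Usp18 reached 10.05, 1.71-fold, and 9.47, 2.28-fold. The modifier and its protease thus had smaller day ratios than the Ifit genes in both subsets.

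Under membranes and transport, 3 of 5 were called higher at day 4 in Ly6Clow cells (background 8.08%) and 2 of 5 in Ly6Chigh cells (background 9.67%). Ifitm3 was 12.86 at day 4 in Ly6Chigh cells, 1.07-fold lower than at day 2, and 11.82 in Ly6Clow cells, 1.45-fold higher. Bst2 reached 12.21 in Ly6Chigh cells, 2.24-fold higher, and 12.53 in Ly6Clow cells, 1.77-fold higher. Mx1 and Mx2 differed 1.92-fold and 2.02-fold in Ly6Chigh cells and 3.70-fold and 4.13-fold in Ly6Clow cells. Of the others, Ifi35 was close to even in both subsets (log2 ratios -0.02 and 0.27).

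**Figure D2:**
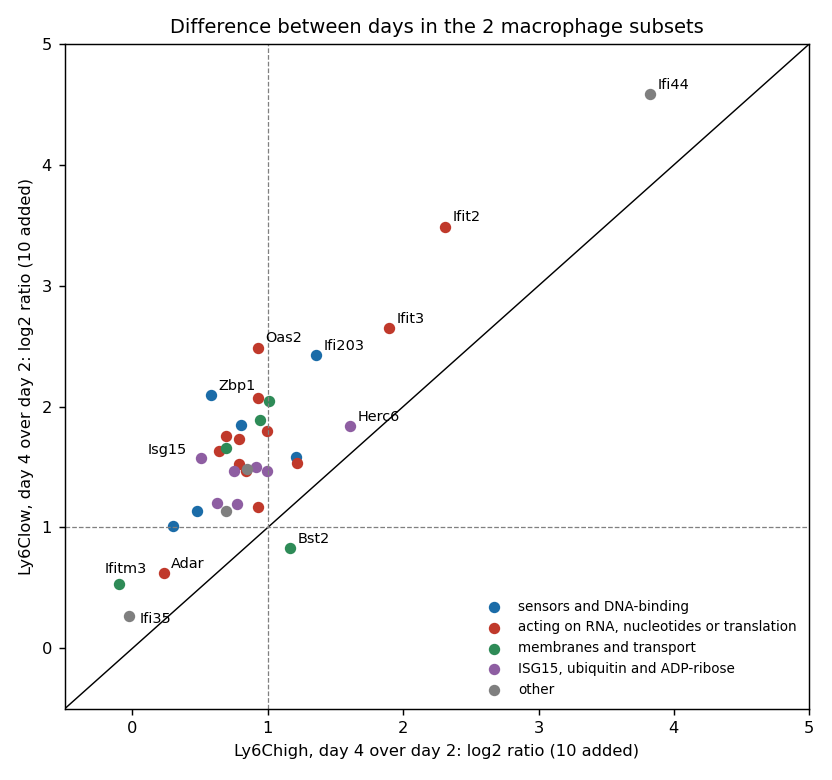
Log2 ratio of day 4 over day 2 for each of the 35 members in Ly6Chigh cells (x axis) and Ly6Clow cells (y axis), from normalised counts with 10 added, with a diagonal of equal ratios and dashed lines at 2-fold. All members but Bst2 lie above the diagonal, and Ifi44, Ifit2 and Ifit3 lie farthest to the upper right.

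Across the 35 members the day ratios of both subsets went together, with Pearson's r = 0.877 and Spearman's rho = 0.609. The 4 columns behind them are separate groups, but they share genes and a normalisation, and the members are not independent. Ifi44, Ifit2 and Ifit3 are at the high end in both subsets.

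At day 4 the gap between subsets was smaller than at day 2 for all 35 members, against 62.1% of genes. Of 35, 2 were called lower in Ly6Clow cells (background 4.22% of 11764 genes) and 0 higher (background 2.98%), with 7.21% of genes called either way, so the share called was near the background. The calls were Isg20 at 8.94 in Ly6Chigh and 7.64 in Ly6Clow cells (log2 normalised count), 2.41-fold lower, and Ifitm3 at 2.05-fold lower. On a scale of equal totals Mx1 and Oasl1 were called as well, 4 in all, against 5.36% of genes on that scale. The median log2 ratio was -0.45, and 33 of 35 members were lower in Ly6Clow cells. Isg15 differed 1.75-fold, Usp18 1.49-fold, Rsad2 1.45-fold and Ifit1 1.18-fold. Bst2 was again higher in Ly6Clow cells at 1.25-fold, and Cmpk2 was even (log2 ratio 0.04, and -0.06 on a scale of equal totals).

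Transcripts of the type I interferon genes listed here were scarce, and further interferon alpha genes were not examined. Ifna1, Ifna2, Ifna4, Ifna5, Ifna6 and Ifna9 were listed at 0 in all 5 muscle groups, and Ifnb1, which encodes interferon beta, was between 0 and 1.79 (log2 normalised count). Ifng, which encodes interferon gamma and is a product of T and NK cells, was 4.87 in Ly6Chigh cells at day 4 and 0 to 0.08 in the other 4 groups. These are levels in the sorted cells only, and the rest of the muscle was not measured here.

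Receptor and kinase genes varied less than the targets. Ifnar1 was between 11.17 and 11.67 (log2 normalised count) in the 4 macrophage groups and Ifnar2 between 10.74 and 11.49. Of 7 genes listed, 0 were called between days in Ly6Chigh cells (13.4% of all genes called either way). In Ly6Clow cells 1, Ifngr1, was called higher at day 4 (background 8.08%). Jak2 was called lower in Ly6Clow cells at each day.

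Among the transcription factors reported here, Irf1, Irf7, Irf8 and Stat2 were called higher at day 4 in both subsets. Irf7 was 11.86 and 13.77 (log2 normalised count) in Ly6Chigh cells, 3.76-fold, and 10.19 and 13.18 in Ly6Clow cells, 7.87-fold. At day 2 Irf7 was called between subsets, 3.16-fold lower in Ly6Clow cells, and at day 4 it differed 1.51-fold. Irf9 differed 1.18-fold and 1.60-fold between days and was not called.

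Target genes outside the 35 were counted in the same way. The shares over all genes were 9.67% higher at day 4 in Ly6Chigh cells, 8.08% in Ly6Clow cells, and 5.46% lower in Ly6Clow cells at day 2. Of 24 other type I interferon genes in the table, 11 were called higher at day 4 in Ly6Chigh cells and 20 in Ly6Clow cells. In Ly6Clow cells at day 2, 9 of them were called lower. Of 12 genes known mainly for induction by interferon gamma, 10 were called higher at day 4 in Ly6Chigh cells, 12 in Ly6Clow cells, and 7 were lower in Ly6Clow cells at day 2. Ciita, the master regulator of MHC class II, was 3.76 at day 2 and 10.09 at day 4 in Ly6Clow cells (log2 normalised count), 46.7-fold higher. The chemokine gene Cxcl9 was 3.56 and 8.88 in Ly6Chigh cells, 22.2-fold higher, and 1.65 and 8.08 in Ly6Clow cells, 21.3-fold higher. The day 4 difference thus took in gamma-inducible genes with ratios as large as or larger than those of the members, and many genes respond to both kinds of interferon.

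Markers of other cells also differed between groups. The summed T and NK cell markers (9 genes, log2 of summed normalised counts) were 9.82 in Ly6Chigh cells at day 4 and 3.50 to 5.54 in the other groups. For 7 markers of plasmacytoid dendritic cells, which are strong producers of type I interferon, the sum was 11.58 in Ly6Chigh cells at day 4 and 9.65 to 11.03 elsewhere. Their defining gene Siglech was 9.12 in Ly6Chigh cells at day 4, 4.03 in Ly6Clow cells at day 4, 3.49 in Ly6Chigh cells at day 2, 0.69 in neutrophils and 0 in Ly6Clow cells at day 2. Fibroblast markers (7 genes) had their highest sum in the same group, 14.53, against 10.74 in Ly6Clow cells at day 4 and 6.32 to 7.93 elsewhere. In Ly6Clow cells the sums were higher at day 4 than at day 2 for T and NK markers (3.50 and 5.40, with 4 and 3 of 9 genes at 0) and for plasmacytoid markers (9.65 and 10.35, with 3 and 1 of 7 at 0). The part of these cells in the member levels was not tested.

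Neutrophils at day 1 were set beside Ly6Chigh macrophages at day 2, which differ from them in both cell type and day, so these cannot be told apart. Of the members, 13 of 35 were called higher in neutrophils (background 30.9% of 11789 genes) and 7 lower (background 27.6%), with 58.4% of genes called either way. Scaling both groups to equal totals moved the log2 ratio of the median gene by -1.01, and then 4 were higher (13.8% of genes) and 9 lower (49.3%). The median log2 ratio of the members was 0.49 as deposited and -0.56 on equal totals, against 0.15 and -0.97 over all genes. Its sign turned with the scale, so no direction is given, but it lay above the median of all genes on both scales. As deposited, 37.1% of members were called higher and 20.0% lower, near the shares over all genes. On equal totals both counts lay under those shares. The counts by role below describe single genes beside these shares and set the members apart from other genes in neither direction.

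Genes acting on RNA made up 9 of the 13 higher calls on the deposited scale, and all 4 on equal totals. Samd9l was 12.48 (log2 normalised count) in neutrophils and 9.35 in Ly6Chigh cells, 8.63-fold higher as deposited and 4.18-fold on equal totals. Isg20 was 11.01 and 8.24, 6.64-fold and 3.23-fold higher on these scales. Ifit1 was 10.89 and 8.26, 6.00-fold and 2.92-fold higher, and Rsad2 was 12.85 and 10.76, 4.26-fold and 2.05-fold higher. These 4 were called higher under both scalings, and 0 of the 13 in this role were called lower under either. Oas2 (3.25-fold) and Isg15 (11.83, 3.07-fold) were called higher as deposited but not on equal totals.

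The members lower in neutrophils belonged to the roles of membranes and transport, sensors and others. Mx1 was 3.81 (log2 normalised count) in neutrophils against 10.09 in Ly6Chigh cells, 46.0-fold lower as deposited and 73.4-fold on equal totals. Mx2 was 2.74 against 7.49, 11.3-fold and 16.3-fold lower. Ifi203 was 6.10 against 9.83, 11.7-fold and 22.2-fold lower, and Bst2 was 8.44 against 11.04, 5.90-fold and 12.0-fold lower. Dhx58 (4.80-fold as deposited and 9.70-fold on equal totals), Zbp1 (3.28-fold and 6.71-fold) and Xaf1 (2.41-fold and 4.82-fold) completed the 7, and all 7 were called lower under both scalings. Equal totals added Ifi204 and Ifitm3, the latter 12.13 against 12.96, 1.78-fold lower as deposited and 3.68-fold on equal totals. By role, 3 of 5 members under membranes and transport and 3 of 6 sensors were lower as deposited. In the ISG15 and ubiquitin group it was 0 of 7. The share over all genes was 27.6%, and the difference between roles was not tested.

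Within roles neutrophils were uneven. Ddx58 was 2.86-fold higher as deposited and 1.38-fold on equal totals, while its regulator Dhx58 was lower on both. The direction of Ifih1 and Usp18 turned with the scale. Ifih1 had a log2 ratio of 0.39 as deposited and -0.65 on equal totals, and Usp18 (9.50 against 9.27, log2 normalised count) had 0.23 and -0.81. Irf7 was 11.80 against 11.86, a 1.04-fold difference as deposited, and was called lower on equal totals at 2.15-fold. Irf8, a factor of the monocyte lineage, was 33.4-fold lower as deposited and 62.3-fold on equal totals. All 4 feedback genes were called higher as deposited, and Socs3 (7.22-fold and 3.48-fold) and Socs1 (4.55-fold and 2.24-fold) on both scales.

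**Figure D3:**
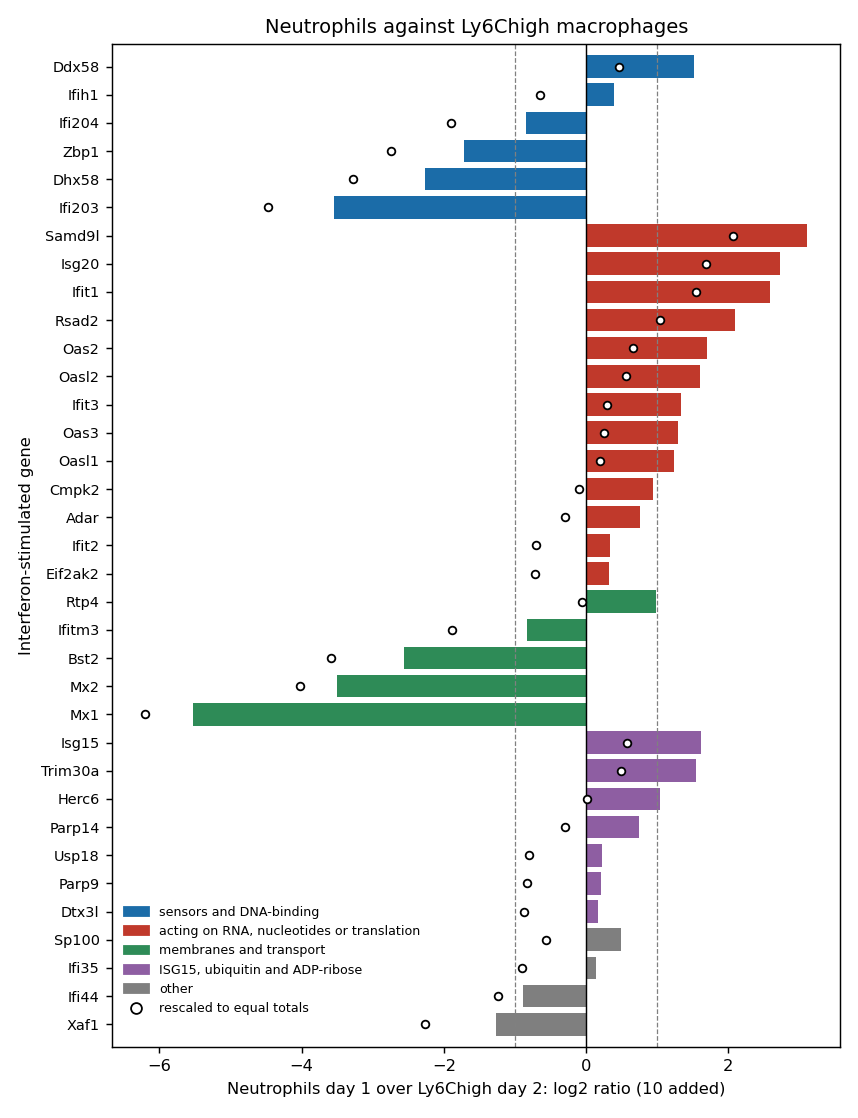
Log2 ratio of neutrophils at day 1 over Ly6Chigh cells at day 2 for the 35 members, as deposited and after scaling to equal totals, grouped by role. Samd9l, Isg20, Ifit1 and Rsad2 are called higher on both scales and Mx1, Ifi203, Mx2, Bst2, Dhx58, Zbp1 and Xaf1 lower on both.

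The last comparison asked whether RvD2 changed these genes in cultured macrophages, where values per library allow a test. With limma and Benjamini-Hochberg adjustment over 15239 genes at a threshold of 0.05, 0 of 35 members were called higher (background 0.794%) and 0 lower (background 1.06%), with 1.86% of genes called either way. At an unadjusted p under 0.05 there were 4 of 35 members, Oasl2, Zbp1, Usp18 and Rsad2, against 15.6% of genes. For 32 of 35 members the mean was higher with RvD2, against 49.2% of genes, with a median log2 difference of 0.33 against -0.00 for all genes. In 0 members did the RvD2 libraries all lie above the controls or all below them, against 9.29% and 11.7% of genes. The labels name separate samples but not separate cultures, so the spread behind these p-values may be technical. With a replicate block in the fit, 8 of 35 members were called, against 7% of genes.

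Values by library follow for the 5 members with the lowest p. Oasl2, which resembles the OAS enzymes and carries ubiquitin-like domains, was 7.85, 7.88 and 8.97 (log2 normalised count) in controls 1 to 3 and 9.22, 8.85 and 9.12 with RvD2. Its difference was 0.83 ± 0.27 (SE, n = 3 and 3), with a limma adjusted p of 0.178 and a 95% interval of 0.21 to 1.44. Control 3 reached the RvD2 range while the other controls did not.

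Zbp1 was 4.37, 4.60 and 5.75 in controls and 6.08, 5.46 and 6.20 with RvD2, a difference of 1.00 ± 0.36 (SE, log2 normalised count, limma adjusted p 0.215). Usp18 was 4.61, 4.24 and 5.78 in controls and 5.86, 5.53 and 6.58 with RvD2, a difference of 1.12 ± 0.40 (SE, limma adjusted p 0.224). In both genes the second RvD2 library lay below control 3, and the groups overlapped through that pair. Rsad2 was 6.53, 6.73 and 7.87 in controls and 8.06, 7.32 and 9.48 with RvD2, a difference of 1.24 ± 0.52 (SE, limma adjusted p 0.299). Isg15 was 6.10, 5.75 and 6.73 in controls and 7.19, 6.33 and 6.95 with RvD2, a difference of 0.63 ± 0.28 (SE, limma adjusted p 0.334). The pattern of a high control 3 and a low RvD2 library 2 recurred in both.

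Other members varied more between libraries than between groups. Ifit1 was 4.99, 4.91 and 6.93 in controls and 6.46, 5.25 and 7.58 with RvD2, with a 95% interval of the difference from -0.67 to 2.31. Ifitm3 was 10.35, 10.19 and 10.82 in controls and 10.87, 10.34 and 10.52 with RvD2 (interval -0.27 to 0.52). Bst2 was 10.51, 10.34 and 10.83 in controls and 11.04, 10.59 and 10.68 with RvD2 (interval -0.12 to 0.54). These intervals include 0 and leave room for differences of either sign. The mean was lower with RvD2 for Ifi204 (-0.15), Eif2ak2 (-0.06) and Isg20 (-0.05), none of them past the threshold.

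Control 3 was the highest of the 3 controls for 34 of 35 members, against 35.1% of genes. It lay above the mean of the other 2 controls by a median of 0.76 on the log2 scale over the members, and by 0.00 over all genes. RvD2 library 2 was the lowest of its group for 24 of 35 members, against 28.6% of genes. RvD2 library 3 was the highest of its group for 26 of 35 members, with the share over all genes not counted. The members' median SD was 0.436 among controls and 0.271 with RvD2, against 0.115 and 0.122 for 13294 genes in the same range of levels. Interferon-stimulated genes thus had a larger median SD within each group than those 13294 genes. That set holds most of the 15239 genes tested and was not matched to the members gene by gene.

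Neutrophil markers were also highest in control 3, with a log2 sum over 8 genes of 13.86 against 12.10 and 12.74 in the other controls and 12.11, 12.48 and 13.14 with RvD2. Their part in the member levels was not tested. Without control 3, limma called 2 members, Oas3 and Oasl2 (difference 1.20, adjusted p 0.010), beside 0.919% of 15227 genes. In that fit 23 of 35 members had an unadjusted p under 0.05, against 14.6% of genes, and the median difference of the members was 0.56. Without control 1, and likewise without control 2, 0 of 35 members had one, and the median difference was 0.19 in each fit. Control 3 stood out by the members' own values, so leaving it out raises their difference by construction and gives no independent support for one.

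**Figure D4:**
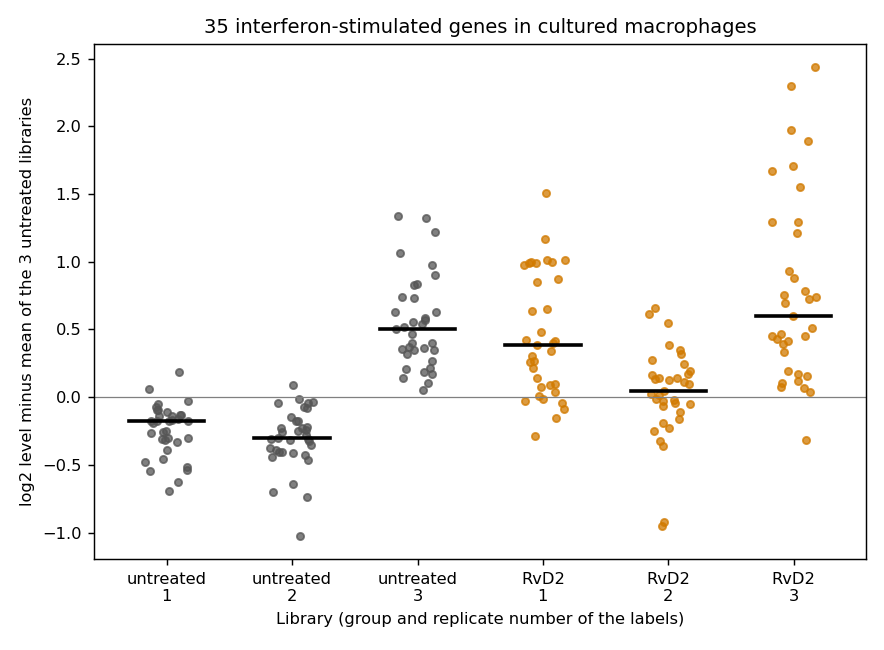
Members in the 6 BMDM libraries, each as the log2 level minus that gene's mean over the 3 untreated libraries, with 1 point per member and a bar at the median of the library. Control 3 (labelled untreated 3) lies above controls 1 and 2 for 34 of 35 members and above all other libraries for 8, and its median (0.50) lies between those of RvD2 libraries 1 (0.39) and 3 (0.60).

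Upstream genes in BMDM had smaller median log2 differences than the members (0.33). The median was 0.20 for 7 receptor and kinase genes, 0.05 for 8 sensors and adaptors and 0.08 for 4 feedback genes. Ifna genes listed above were at 0 in all 6 libraries, and Ifnb1 was at 0 in 5 and at 0.09 (log2 normalised count) in RvD2 library 3. Irf7 was 7.42, 7.17 and 8.99 in controls and 8.63, 7.94 and 8.35 with RvD2. It did not pass the threshold, and control 3 was again the highest control. Of the receptor and kinase genes, Ifngr2, a subunit of the interferon gamma receptor, was the single one called, higher by 0.44 ± 0.085 (SE, log2 scale, limma adjusted p 0.043).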

How the data were processed

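Poly-A RNA was sequenced on an Illumina HiSeq from TruSeq libraries that mark no strand, per the labels' protocols. TopHat2 2.0.7, DESeq and mm10 are named in the submitters' processing notes, with the roles of each and the gene annotation not given in the sources used here. Both deposited tables hold log2 values of normalised read counts per gene, in which a normalised count under 1 appears as 0. This unit was read from the values. BMDM have 1 column per library, and the estimated depth was 9.05 to 14.3 M reads. Each muscle column was read as a group mean of log2 values, which its header does not state, and its depth is unknown. Blood monocytes and Ly6Chigh cells at day 1 were not analysed here.

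Muscle ratios were taken on normalised counts with 10 added, and called at 2-fold with the higher group at 50 or more. BMDM were tested with limma 3.58.1 in R 4.3.3 (mean-variance trend, two-sided, filter: mean normalised count 10 or more), after the step was tested on simulated data. The rest used numpy 2.4.6, pandas 2.3.3 and matplotlib 3.10.9 under Python 3.11.15. Alternatives were other added constants, filters, limits, scalings, a replicate block and leaving out each BMDM library. Members, role and pathway lists, markers and motifs were chosen with earlier results of these data known. Named genes were, in each muscle comparison, the 6 called members with the largest ratios and any called against the majority. To these were added Isg15, Ifit1, Rsad2, Usp18, Irf7, Ifitm3 and Bst2 throughout, the 5 BMDM members with the lowest p, and pathway genes called or at 0, of which examples are printed, and 1 gene is not reported here. Other genes named as examples were chosen after their values were seen.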

Additional observations from a re-analysis of the deposited data

How the results depend on the processing

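In muscle, of the 6 alternative settings only scaling each group to the same total can change the sign of a ratio. Under it each of the 86 called member ratios kept its sign. With each group scaled to the same total, the median gene shifted by -0.10 in the subset comparison at day 4 and by 0.08 between days in Ly6Chigh cells. On that scale 4 members were lower in Ly6Clow cells at day 4 and 15 were higher at day 4 in Ly6Chigh cells. Against 13 as deposited, 4 were higher in neutrophils on that scale. In neutrophils the members' median ratio went from 0.49 to -0.56, while the median over all genes went from 0.15 to -0.97. With a limit of 1.5-fold, 1 member was higher in Ly6Clow cells at day 2 (14.6% of genes), 12 were lower at day 4 (9.55%), and 28 were higher at day 4 in Ly6Chigh cells (17.9%). For Ly6Clow cells between days the count of higher members stayed between 30 and 33.

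In BMDM, limma called 137 genes with no filter on low values and 49 with no mean-variance trend, beside 283. Leaving out 1 library gave 79 to 288 genes and 0 to 2 members, the latter without control 3. Deviations from the group means correlated at 0.29, 0.02 and 0.05 between samples of the same number. Between samples of unlike number the correlations ran from -0.26 to 0.19. Neutrophil marker sums rose with sample number in controls (12.10, 12.74 and 13.86) and with RvD2 (12.11, 12.48 and 13.14). Plasmacytoid dendritic marker sums had no shared order. Whether samples of the same number are pairs is not settled, and the main fit took none. With a replicate block, 1066 genes (7%) and 8 members were called, so the 0 members called in the main fit depend on this choice. No paired analysis was possible for the muscle groups because each is 1 column. Members below about 50 normalised counts, such as Ifi44 at day 2 and Mx2 in BMDM, carry the most counting error.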
